A study of Homo sapiens with 18 samples.

Results

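The change in gene expression that E2F1 siRNA made in LNCaP cells without added androgen was measured by RNA sequencing. LNCaP is an established line of prostate cancer that responds to androgen. The comparison was set by the labels: 3 libraries of cells given an E2F1 siRNA SmartPool and vehicle against 3 libraries of cells given a non-targeting control SmartPool and vehicle, which are 6 of the 18 libraries of the series. The vehicle was ethanol (ETOH), and all groups were grown in medium whose serum had been stripped of steroids with charcoal, and transfected with Lipofectamine 2000. The other 12 libraries are E2F2 siRNA with vehicle and the 3 siRNA pools with 0.1 nM R1881, a synthetic androgen. They entered the same fit, in which all 18 libraries share 1 estimate of the spread between replicates. Vehicle or R1881 was added 42 h after transfection according to the series design and 48 h according to the treatment protocol, and RNA was taken 48 h later. Each gene was targeted with 1 pool in 1 cell line. The table lists 58037 genes, and 15185 of them passed the filter on low counts.

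E2F1 and E2F2 are activator members of the E2F family of transcription factors. When cyclin-dependent kinases phosphorylate the RB protein, these factors are released and switch on genes for nucleotide synthesis, origin licensing, DNA replication and, later, mitosis. Androgen drives proliferation of LNCaP cells, so in the vehicle libraries E2F1 mRNA is lowered in cells that lack this stimulus. Interferon-stimulated genes are a second system that matters for siRNA work. Double-stranded RNA sensors and IRF and STAT factors act on a promoter element, the interferon-stimulated response element, and switch on effectors such as the OAS, IFIT and GBP genes.

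The 6 libraries held 10930204 to 14563300 gene counts. Luminal markers were high in all of them: 8 luminal markers (KLK3, KLK2, FOLH1, HOXB13, KRT8, KRT18, TMPRSS2 and EPCAM) summed to 3060 to 3170 CPM (counts scaled to library size) with control siRNA and 2760 to 2980 with E2F1 siRNA. The basal markers KRT5 and TP63, the fibroblast marker DCN, the T cell marker CD3E and the neuroendocrine markers CHGA and INSM1 were at 0 counts in all 6. Others of these classes were present: the basal keratin KRT14 had 6 counts with control siRNA and 5 with E2F1 siRNA, the neuroendocrine SYP 85 and 70, the macrophage marker CD68 10 and 2, the fibroblast collagen COL3A1 220 and 242, its relative COL1A1 1011 and 487, the mesenchymal VIM 378 and 596, and the endothelial VWF 630 and 263. The 3 basal markers summed to 0.0691 to 0.20 CPM with control siRNA and 0 to 0.22 with E2F1 siRNA, and the 4 neuroendocrine markers to 1.69 to 2.33 and 1.68 to 2.08. The replicate 3 libraries stood apart from replicates 1 and 2. Chi-square over its degrees of freedom, across genes, was 1.79 between replicates 1 and 2 with control siRNA and 4.42 with E2F1 siRNA, whereas it was 82.7 and 92.5 between replicate 3 and these with control siRNA and 36.2 and 45.2 with E2F1 siRNA. In the remaining groups of the series replicate 3 lay closer to replicates 1 and 2, at 7.98 to 18.4. The spread used for the calls is shared with those groups. Deviation of a replicate 3 library from the mean of replicates 1 and 2 of its group went with GC content across 11054 genes (r = 0.836 with control siRNA and 0.805 with E2F1 siRNA). Their part in the results was not tested beyond the fits without them and with a GC correction, which called more members in most gene lists.

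The target itself was low in every E2F1 siRNA library. E2F1 (ENSG00000101412.12, chromosome 20, 33675683 to 33686404) stood at 35.2, 33.6 and 43.0 CPM in control replicates 1 to 3 and at 5.79, 5.92 and 8.77 CPM with E2F1 siRNA. The groups were far apart, and 18.3% of the control mean remained (log2 fold change -2.45 ± 0.17, edgeR quasi-likelihood test with Benjamini-Hochberg adjustment over all genes tested, adjusted p = 5.11e-07). E2F2 was scarce, at 2.23, 1.45 and 3.20 CPM with control siRNA and 1.39, 1.77 and 2.46 with E2F1 siRNA. The groups overlapped and no change was called (log2 -0.29 ± 0.38, adjusted p = 0.817). Without control replicate 3 the fitted E2F2 value was 0.035, on the other side of 0, so no direction can be given at this depth.

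Gene coordinates are those of GENCODE 29 on GRCh38. Promoter stretches are shown for genes the results turn on, from RefSeq (GRCh38.p14), each 100 bases long and ending at or before the transcription start, written 5′ to 3′ on the strand of the gene. The first set holds the 5 interferon effectors with the smallest p among those that rose and had a match to GAAANNGAAA, the core of the interferon-stimulated response element, read on both strands. The matches are in capitals.
IFI6 (chr1:27672231-27672330, minus strand): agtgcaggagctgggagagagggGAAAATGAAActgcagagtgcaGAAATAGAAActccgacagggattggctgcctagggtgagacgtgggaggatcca
IFI27 (chr14:94110596-94110695, plus strand): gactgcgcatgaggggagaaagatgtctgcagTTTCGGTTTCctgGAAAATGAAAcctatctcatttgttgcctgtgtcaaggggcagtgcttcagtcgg
GBP1 (chr1:89065281-89065380, minus strand): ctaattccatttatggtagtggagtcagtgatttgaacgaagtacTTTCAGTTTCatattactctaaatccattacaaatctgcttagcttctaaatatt
IFIT3 (chr10:89332429-89332528, plus strand): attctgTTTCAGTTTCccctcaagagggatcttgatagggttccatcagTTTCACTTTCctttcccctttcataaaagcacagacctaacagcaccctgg
IFIT1 (chr10:89392475-89392574, plus strand): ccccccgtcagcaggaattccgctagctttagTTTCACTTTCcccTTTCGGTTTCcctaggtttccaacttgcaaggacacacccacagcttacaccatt
This motif was in the 300-base promoter (250 bases before and 50 after a start) of 1195 of 27303 genes (4.38%) and of 394 of the 10104 genes tested that had a promoter (3.90%). It was in that of 21 of the 256 higher genes with a promoter (8.20%) and of 13 of the 326 lower ones (3.99%). Among the interferon effectors 25 of 37 held it (67.6%), and among those that rose 10 of 12. These 10 are part of the 21 higher genes with a match.

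The second set holds E2F1, whose own promoter is a known target of the family, and the G1/S genes called in the comparison whose match ended before the start. Capitals mark a match to TTTGGCGC, TTTCCCGC, TTTCGCGC or TTTGCCGC on either strand.
E2F1 (chr20:33686386-33686485, minus strand): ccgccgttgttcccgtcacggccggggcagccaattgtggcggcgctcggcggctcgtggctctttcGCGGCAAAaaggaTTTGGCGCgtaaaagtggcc
CDC25A (chr3:48188418-48188517, minus strand): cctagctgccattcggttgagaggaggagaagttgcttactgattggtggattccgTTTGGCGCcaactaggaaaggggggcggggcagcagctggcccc
MCM3 (chr6:52284863-52284962, minus strand): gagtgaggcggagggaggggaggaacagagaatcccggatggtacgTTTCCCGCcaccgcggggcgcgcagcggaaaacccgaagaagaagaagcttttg
One of these 4 motifs was in the promoter of 1090 of 27303 genes (3.99%) and of 20 of the 39 G1/S genes tested that had a promoter (51.3%). It was in 21 of the 326 lower genes (6.44%) and 11 of the 256 higher genes (4.30%), beside 6.59% of all genes tested. A match describes these letters only.

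E2F1 siRNA without androgen moved 802 genes past an adjusted p of 0.05. Of the genes tested, 359 were higher (2.36%) and 443 lower (2.92%), with a median change of 1.59-fold among the higher and 1.61-fold among the lower, and 220 changed at least 2-fold. The control and E2F1 siRNA libraries did not overlap for 795 of the 802, beside 14.9% of all genes tested. The count differed widely between fits. A fit to these 6 libraries alone called 13 genes, SERPIND1, PEG3, IFI6, P3H2, PRSS23, E2F1, GALNT10, GBP2, JAG1, MYLK, IFI27, KCNMA1 and PLEKHB2, while the fit with the replicate number as a block called 1934, among them all 802. Leaving out 1 library gave 455 (without E2F1 siRNA replicate 1) to 1042 (without control replicate 3).

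Rises were ranked among called genes with at least 2 CPM on average and no overlap between the groups. The largest was in SERPIND1, which encodes heparin cofactor II, a thrombin inhibitor (ENSG00000099937.10, chromosome 22, 20773879 to 20787720). It stood at 1.15, 1.18 and 0.801 CPM with control siRNA and 9.23, 8.31 and 8.62 with E2F1 siRNA (log2 3.06 ± 0.16, adjusted p = 4.26e-08). CXCR4, the receptor of the chemokine CXCL12, went from 0.767, 0.623 and 1.13 to 4.47, 4.07 and 3.92 CPM (log2 2.28 ± 0.22, adjusted p = 1.35e-05). IFI6, an interferon-induced mitochondrial protein, went from 12.5, 13.4 and 15.7 to 54.9, 50.1 and 68.6 CPM (log2 2.06 ± 0.18). The lowest E2F1 siRNA library was above the highest control library in all of these genes, as the ranking required. KRT6C, a keratin, rose with log2 1.84 ± 0.25, MYL9, a myosin light chain, with 1.74 ± 0.23, IFIT3 with 1.71 ± 0.24, IFIT1 with 1.71 ± 0.26, the non-coding LINC01234 with 1.70 ± 0.23, CREB5, a CREB family transcription factor, with 1.70 ± 0.24, and UMODL1 with 1.59 ± 0.27. CYP2J2, an epoxygenase of arachidonic acid, went from 5.91, 7.82 and 5.34 to 18.5, 21.1 and 17.9 CPM (log2 1.59 ± 0.14), and GSTA1, a glutathione transferase, from 7.21, 8.92 and 6.21 to 23.7, 21.0 and 21.9 (log2 1.57 ± 0.15). Adjusted p for these 9 genes lay between 8.41e-06 and 0.00196. KRT6C and GSTA1 have near-identical copies, SERPIND1 lies on the opposite strand within PI4KA, which is abundant and had a log2 value of -0.03, and IFIT1 and IFIT3 overlap LIPA on the opposite strand (log2 0.53). The strand setting of the counting was not given in the sources used here.

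**Figure D1:**
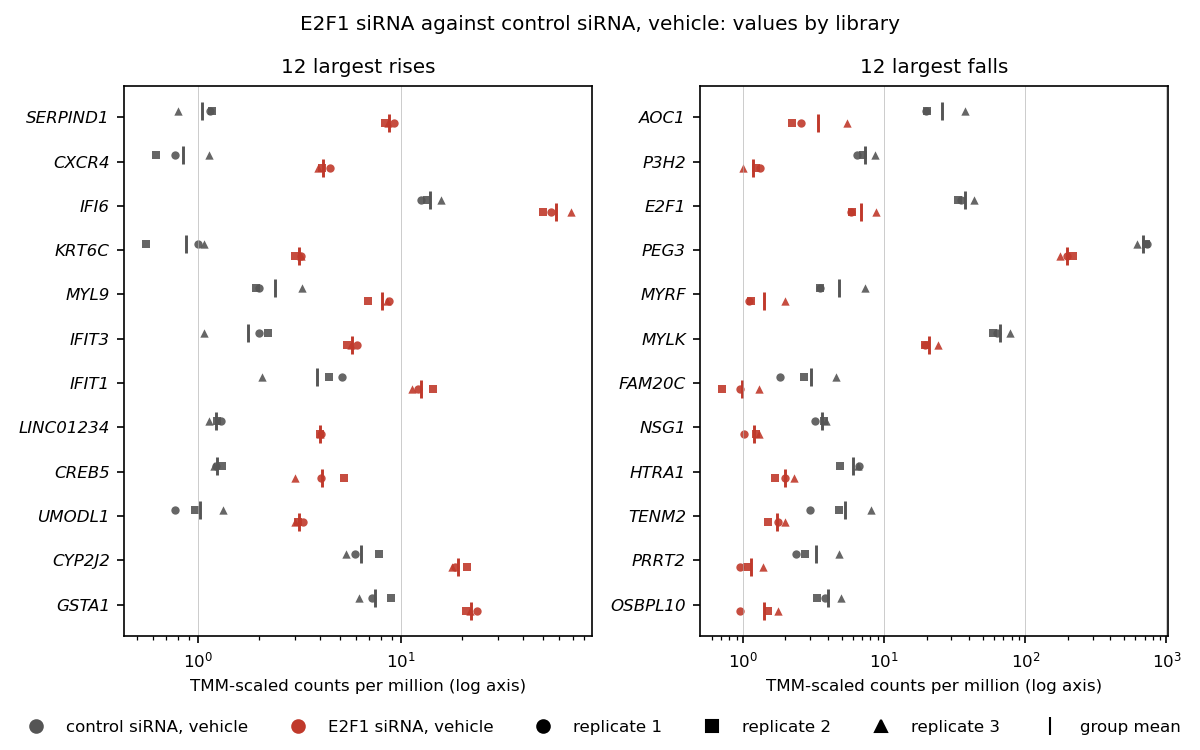
TMM-scaled CPM on a log axis for the 12 genes with the largest rises and the 12 with the largest falls among called genes with a mean of at least 2 CPM and no overlap. Grey is control siRNA with vehicle, red is E2F1 siRNA with vehicle, each symbol is 1 library and the bar is the group mean. In AOC1 and IFIT1 replicate 3 of the control group lies apart from replicates 1 and 2.

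Falls were ranked under the same rule of at least 2 CPM on average and no overlap between the groups. The largest was in AOC1, which encodes diamine oxidase (ENSG00000002726.20, chromosome 7, 150824627 to 150861504). Its levels were 19.6, 20.0 and 37.2 CPM with control siRNA and 2.56, 2.21 and 5.46 with E2F1 siRNA (log2 -2.90 ± 0.35, adjusted p = 1.23e-04), with replicate 3 highest in both groups. P3H2, a collagen prolyl hydroxylase, fell from 6.45, 7.06 and 8.61 to 1.32, 1.24 and 1.00 CPM (log2 -2.63 ± 0.18, adjusted p = 4.02e-07). PEG3, an imprinted zinc finger gene and one of the more abundant genes that fell, went from 725, 720.0 and 615 to 199, 217 and 175 CPM (log2 -1.80 ± 0.10, adjusted p = 4.26e-08). MYLK, myosin light chain kinase, went from 62.9, 58.9 and 77.4 to 19.3, 19.4 and 24.0 CPM (log2 -1.67 ± 0.16, adjusted p = 1.35e-05). The groups were apart by 2-fold or more in each of these genes. MYRF, a myelin gene regulator, fell with log2 -1.76 ± 0.37, FAM20C, the secretory pathway kinase, with -1.60 ± 0.39, NSG1, a neuronal endosomal protein, with -1.60 ± 0.22 and HTRA1, a serine protease, with -1.58 ± 0.19. TENM2, a teneurin adhesion protein, fell with -1.58 ± 0.31, PRRT2, a presynaptic protein, with -1.55 ± 0.34 and OSBPL10, an oxysterol-binding protein, with -1.52 ± 0.27. Calls of MYRF, FAM20C and PRRT2 were lost without E2F1 siRNA replicate 1 or 2, and that of FAM20C also without control replicate 3 (adjusted p up to 0.0636, 0.102 and 0.0703). In bulk RNA, fewer cells of a type and less RNA per cell cannot be told apart.

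Many interferon effectors rose. Of 44 tested, 16 were higher and 1 was lower, beside 2.36% and 2.92% of all genes. With the replicate block 21 were higher and 2 lower, beside 5.66% and 7.08% of all genes. The same 2 shares go with the block count of every list below. The median log2 change was 0.45 beside 0.0054 for all genes tested. IFI27 went from 0.537, 0.277 and 0.467 to 2.71, 3.45 and 3.00 CPM (log2 2.81 ± 0.32, adjusted p = 6.95e-05). OAS1, which makes the 2-5A activator of RNase L, went from 2.38, 2.08 and 1.67 to 4.83, 6.90 and 6.08 CPM (log2 1.54 ± 0.20, adjusted p = 1.96e-04). The guanylate-binding protein gene GBP2 went from 12.1, 12.2 and 14.1 to 36.5, 38.7 and 33.8 CPM (log2 1.51 ± 0.15, adjusted p = 2.06e-05). Its relative GBP1 was scarce with control siRNA, at 0.461, 0.346 and 0.133 CPM (13 counts in all), and stood at 3.30, 3.54 and 2.62 with E2F1 siRNA (log2 3.31 ± 0.46, adjusted p = 3.95e-04). In each of these the E2F1 siRNA libraries lay above all control libraries. The other members that rose besides IFI6, IFIT1 and IFIT3 were IFIT2, OAS2, XAF1, DTX3L, RSAD2, OASL, EPSTI1, IFI44 and IFITM1, named after their values were seen. Leaving XAF1 aside, their fitted log2 values ran from 0.50 for DTX3L to 3.10 for OAS2. XAF1 went from 3 counts to 28 (ratio 10.4, 95% counting interval 3.23 to 53.7). TRIM25, a ubiquitin ligase of the RIG-I pathway, was the 1 member that fell (log2 -0.40 ± 0.07, adjusted p = 0.00283). The 3 leukocyte markers summed to 0.153 to 0.277 CPM with control siRNA and 0 to 0.154 with E2F1 siRNA.

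**Figure D2:**
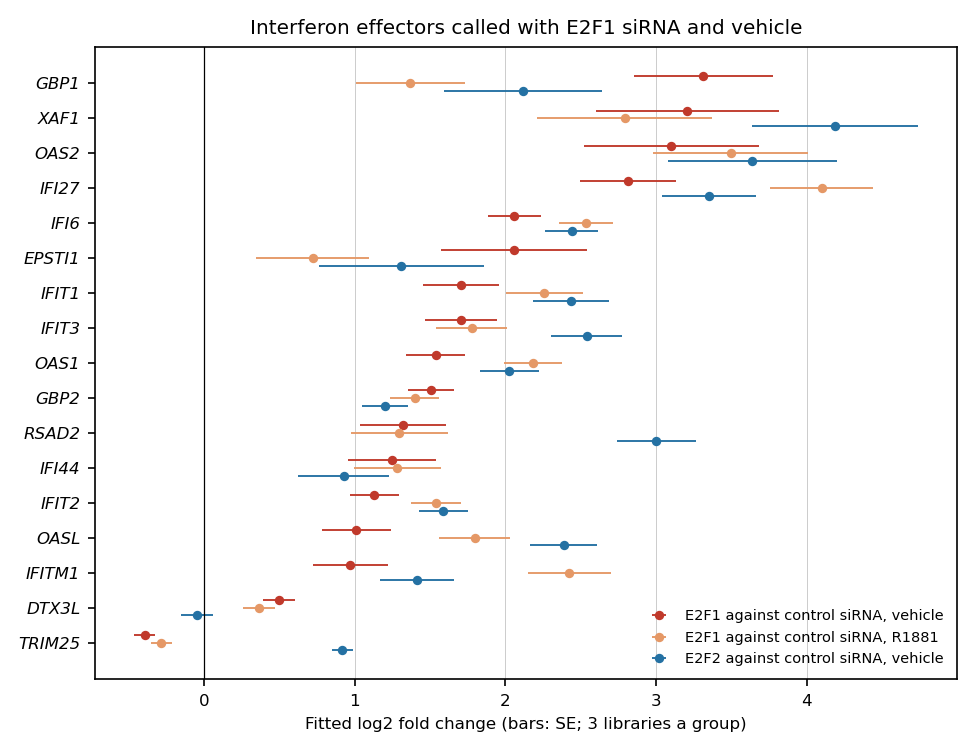
Fitted log2 fold change with its SE for the 17 interferon effectors called in the vehicle comparison: red, E2F1 against control siRNA with vehicle; orange, the same with R1881; blue, E2F2 against control siRNA with vehicle, which shares its control libraries with the red points. IFI27 reads 2.81, 4.10 and 3.35, TRIM25 reads -0.40, -0.29 and 0.92, and the fitted value of XAF1 rests on 3 control counts.

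In the fit without a block or a GC correction the separate list of interferon sensors and signalling genes had no call. None of 21 sensors and signalling genes passed the edgeR test (3 at an unadjusted p under 0.05; DESeq2 called none and limma-voom none), and the median log2 value was 0.10. IRF1, a transcription factor of the pathway, stood at 7.14, 6.23 and 9.61 CPM with control siRNA and 10.1, 10.9 and 11.8 with E2F1 siRNA (log2 0.51 ± 0.18, adjusted p = 0.128; 0.0210 with the replicate block). TMEM173, which encodes STING, had 40 counts with control siRNA and 8 with E2F1 siRNA (adjusted p = 0.0630; 0.0264 with the block). The groups did not overlap for IRF1, and with the block 2 members of this list were called higher and 1 lower. Of 17 MHC class I and antigen processing genes 1 fell (with the block 2 rose and 2 fell), the proteasome activator PSME1 (log2 -0.38 ± 0.10, adjusted p = 0.0349, lost without E2F1 siRNA replicate 1 or 2 or control replicate 3, up to 0.157). Of 12 inflammatory and NF-kB genes 1 rose, NFKB1 (log2 0.28 ± 0.07, adjusted p = 0.0300, up to 0.117 without control replicate 1 or 2 or E2F1 siRNA replicate 1 or 3), and 1 fell. That was IL1B, the interleukin 1 beta gene, with 85 counts in the control libraries and 9 in the E2F1 siRNA libraries (log2 -3.02 ± 0.41, adjusted p = 2.99e-04).

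In the fit without a block or a GC correction 6.52% of G1/S genes and 7.69% of G2/M genes were lower, beside 2.92% of all genes tested. The number for mitosis depended on the fit. Of 46 genes for G1/S and DNA replication, 3 fell and 1 rose, and the median log2 value was -0.02. The single rise is 2.17% of the list, near the 2.36% of all genes tested. CDC25A, the phosphatase that activates CDK2, went from 31.1, 27.8 and 26.7 to 20.1, 17.1 and 17.4 CPM (log2 -0.65 ± 0.10, adjusted p = 7.84e-04). RRM2, a ribonucleotide reductase subunit, went from 121, 126 and 80.5 to 78.1, 73.0 and 66.7 CPM (log2 -0.59 ± 0.14, adjusted p = 0.0225), with control replicate 3 close to the highest E2F1 siRNA library. MCM3, of the replicative helicase, fell with log2 -0.41 ± 0.10 (adjusted p = 0.0276). CDC6, the licensing factor, was the 1 gene that rose, from 51.0, 46.2 and 43.0 to 59.2, 58.0 and 62.1 CPM (log2 0.35 ± 0.09, adjusted p = 0.0338). The call of CDC25A stood whichever library was left out. That of RRM2 was lost without control replicate 1 or 2 or E2F1 siRNA replicate 2 or 3, that of MCM3 without control replicate 1 or 3 or E2F1 siRNA replicate 1 or 2, and that of CDC6 without any library except control replicate 1 (adjusted p up to 0.0970, 0.126 and 0.0939). Of 16 genes of the E2F, RB and DREAM complexes none was called by edgeR (3 at an unadjusted p under 0.05; DESeq2 called none and limma-voom none), and with the block 1 was higher and 1 lower. E2F7, an E2F repressor, stood at 14.1, 14.7 and 11.1 CPM with control siRNA and 9.45, 10.7 and 7.77 with E2F1 siRNA (log2 -0.52 ± 0.16, adjusted p = 0.0852; 0.0153 with the replicate block). LIN52, of the DREAM core, had log2 0.42 ± 0.16 (adjusted p = 0.179; 0.0420 with the block).

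Of 52 G2/M and mitosis genes 4 fell, and the median log2 value was -0.25. CDCA8, a chromosomal passenger protein, went from 34.5, 35.4 and 37.6 to 25.1, 21.2 and 26.8 CPM (log2 -0.56 ± 0.11, adjusted p = 0.00873). The kinesin KIF20A (log2 -0.46 ± 0.12), the spindle midzone protein PRC1 (-0.41 ± 0.10) and the spindle protein SPAG5 (-0.44 ± 0.11) also fell, with adjusted p of 0.0309 to 0.0412. The CDCA8 call was lost without E2F1 siRNA replicate 2 (adjusted p = 0.0512). That of KIF20A was lost without control replicate 1 or 3 or E2F1 siRNA replicate 1 or 2 (up to 0.188), that of PRC1 without control replicate 1 or 2 or E2F1 siRNA replicate 1 or 2 (up to 0.142) and that of SPAG5 without control replicate 1, 2 or 3 or E2F1 siRNA replicate 1 or 2 (up to 0.143). Of the 52 values 7 were above 0. The number lower was 15 with the replicate block, 24 with the GC correction, 29 with both and 33 with replicates 1 and 2 only, and none was higher in any of these fits. Of all genes tested 7.08%, 8.39%, 11.7% and 9.48% were lower in these fits, in that order. The median of the list against the control group mean was 0.11, 0.17 and -0.33 in control replicates 1 to 3 and -0.16, -0.27 and -0.26 with E2F1 siRNA, so control replicate 3 lay with the E2F1 siRNA libraries. Of 50 replication histones 2 fell, HIST1H4C (log2 -0.47 ± 0.12) and HIST1H4H (-0.33 ± 0.08), and 17 fell with the block and 1 rose. Here the median was -0.26, -0.23 and 0.37 in control replicates 1 to 3 and -0.39, -0.55 and 0.02 with E2F1 siRNA, so replicate 3 lay highest in both groups. The HIST1H4C call was lost without control replicate 1, 2 or 3 or E2F1 siRNA replicate 1 or 2 (adjusted p up to 0.134) and that of HIST1H4H without control replicate 1 or 2 or E2F1 siRNA replicate 2 or 3 (up to 0.118), and near-identical histone copies may share reads.

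Some inhibitors of G1 fell, as did cyclin D1. Of 15 G1 regulators 4 fell and none rose, with a median log2 value of -0.03. CDKN2C, which encodes the CDK4 and CDK6 inhibitor p18, went from 21.9, 22.6 and 24.3 to 12.7, 11.8 and 16.2 CPM (log2 -0.76 ± 0.16, adjusted p = 0.0118). CDKN2D, which encodes p19, went from 5.99, 4.84 and 7.27 to 3.30, 2.12 and 3.38 CPM (log2 -1.03 ± 0.20, adjusted p = 0.00593). CDKN1C, the p57 gene, had 41 counts with control siRNA and 5 with E2F1 siRNA (log2 -2.77 ± 0.64, adjusted p = 0.0198). CCND1 went from 446, 446 and 425 to 390.3, 371 and 364 CPM (log2 -0.23 ± 0.06, adjusted p = 0.0397). CDKN2D kept its call whichever library was left out. The others lost it without E2F1 siRNA replicate 1 or 2 (adjusted p up to 0.0642 for CDKN2C, 0.0747 for CDKN1C and 0.117 for CCND1). CDKN1C was also lost without either replicate 3, and CCND1 without control replicate 1 or 2 or E2F1 siRNA replicate 3.

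Among DNA repair genes 1 of 35 rose, the uracil glycosylase UNG (log2 0.36 ± 0.08), and 1 fell, the mismatch repair gene PMS2 (-0.39 ± 0.08). Each is 2.86% of the list, near the 2.36% and 2.92% of all genes tested. With the block 2 rose and 1 fell. The calls of UNG and PMS2 could be lost with 1 library, UNG without control replicate 1 or E2F1 siRNA replicate 1 or 3 (adjusted p up to 0.0769) and PMS2 without control replicate 1 (adjusted p = 0.0538). Of 30 p53 targets 2 rose (6.67%) and 1 fell (3.33%), and with the block 5 rose and 2 fell. The antiproliferative BTG2 went from 77.4, 76.4 and 88.3 to 111, 109 and 118 CPM (log2 0.48 ± 0.09, adjusted p = 0.00601), the stress gene GADD45A from 9.36, 9.55 and 10.1 to 14.9, 14.7 and 15.0 (log2 0.62 ± 0.12, adjusted p = 0.00740), and the death receptor gene TNFRSF10B fell with log2 -0.31 ± 0.07 (adjusted p up to 0.0973 without replicate 1 or 2 of either group). Of 26 apoptosis genes 3 rose. The death ligand gene TNFSF10 went from 30 to 104 counts (log2 1.95 ± 0.37, adjusted p = 0.00498), the inflammatory caspase CASP4 had log2 0.63 ± 0.11 and the initiator caspase CASP10 0.68 ± 0.14. With the GC correction CASP4 was not called (adjusted p = 0.240). Of 26 Polycomb and chromatin genes 1 fell (3.85%, beside 2.92% of all genes tested). This was the chromatin protein HMGB2, from 88.7, 96.0 and 102 to 64.5, 59.6 and 72.1 CPM (log2 -0.55 ± 0.09, adjusted p = 0.00150).

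Several androgen-induced genes stood higher with E2F1 siRNA although no androgen had been added. Of 43 genes of that list 6 rose and 2 fell, and the median log2 value was 0.09. With the replicate block 13 rose and 2 fell, beside 5.66% and 7.08% of all genes tested. KLK3, which encodes prostate-specific antigen (ENSG00000142515.14, chromosome 19, 50854915 to 50860764), went from 115, 113 and 103 to 235, 197 and 187 CPM (log2 0.91 ± 0.12, adjusted p = 2.50e-04). KLK2, its neighbour and close relative, went from 9.90, 9.41 and 9.41 to 24.2, 17.9 and 18.4 CPM (log2 1.08 ± 0.15, adjusted p = 3.24e-04). SLC45A3, the prostein gene, went from 45.5, 42.1 and 57.7 to 87.9, 89.9 and 113 CPM (log2 1.00 ± 0.12, adjusted p = 1.36e-04). In these genes every E2F1 siRNA library was above every control library. SORD, sorbitol dehydrogenase, went from 343, 342 and 363 to 489.9, 458 and 488 CPM (log2 0.46 ± 0.07, adjusted p = 9.26e-04). The other rises were in GNMT and DBI, and the falls in MAF (log2 -0.79 ± 0.14, adjusted p = 0.00275) and TMPRSS2; GNMT and DBI are named after their values were seen. TMPRSS2, a surface protease, went from 94.2, 97.9 and 106 to 75.5, 68.5 and 77.0 CPM (log2 -0.43 ± 0.09, adjusted p = 0.0103; 0.0562 without E2F1 siRNA replicate 2).

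The androgen-repressed list had calls both ways, but KCNMA1 and UGT2B28, among those that rose, are not lower with R1881 in these cells. Of 25, 8 fell and 3 rose, with a median log2 value of -0.15. Besides PEG3, the opioid receptor gene OPRK1 went from 89.6, 87.5 and 73.1 to 35.9, 36.1 and 35.1 CPM (log2 -1.23 ± 0.13, adjusted p = 3.43e-05). The protocadherin gene PCDH11X went from 24.6, 25.0 and 16.8 to 6.88, 9.02 and 7.85 CPM (log2 -1.49 ± 0.19, adjusted p = 1.66e-04) and its near-identical copy PCDH11Y from 170.5, 183 and 123 to 74.6, 95.7 and 69.9 (log2 -0.99 ± 0.14, adjusted p = 3.57e-04), and reads of the pair may be shared. KCNMA1, a calcium-activated potassium channel gene, moved the other way, from 22.1, 27.9 and 21.2 to 68.8, 70.2 and 61.6 CPM (log2 1.49 ± 0.10, adjusted p = 4.02e-07). In these cells KCNMA1 does not follow the list's name, since it stood at 150.3, 154 and 161 CPM in the control siRNA libraries with R1881. The same holds for UGT2B28 (mean 0.724 CPM with vehicle and 2.90 with R1881 in control siRNA libraries), whereas the means of the other 9 called members were lower with R1881 and those of all 8 called members of the androgen-induced list were higher. LRRN1, CAMK2N1, DDC and HOXB13 fell and the steroid-conjugating enzyme genes UGT2B28 and UGT2B11, which have near copies, rose, with log2 values of -0.61, -0.47, -0.58, -0.50, 1.23 and 0.66 in that order; of these, HOXB13 is named by rule and the rest after their values were seen.

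**Figure D3:**
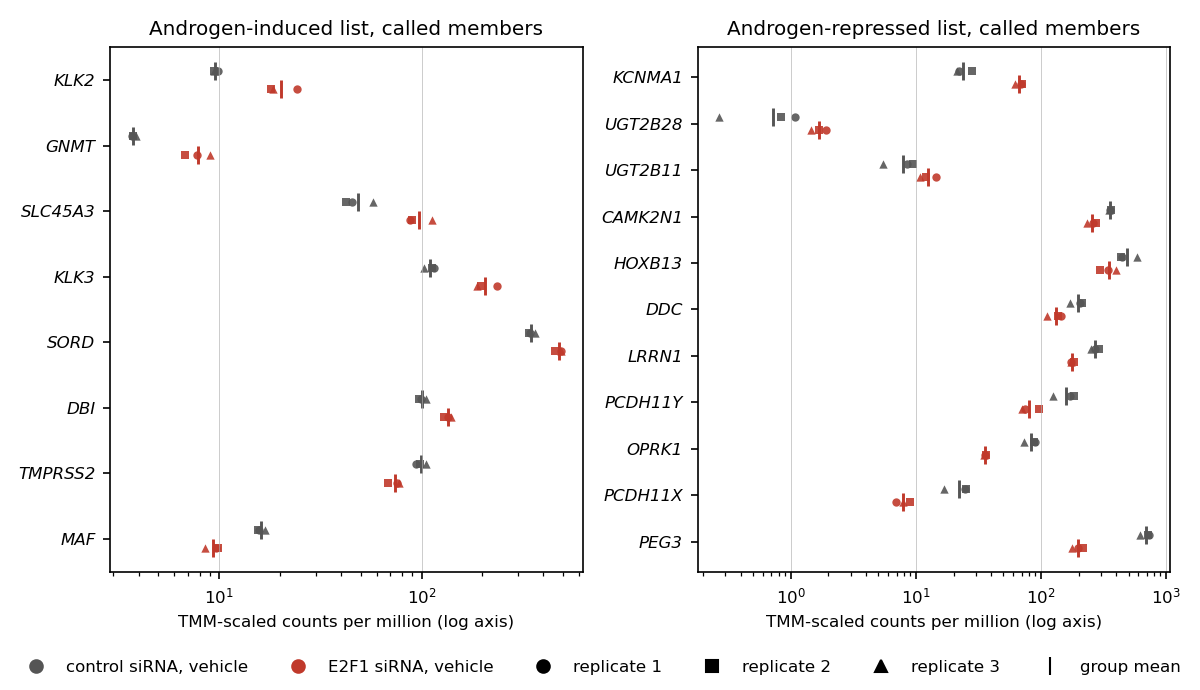
TMM-scaled CPM on a log axis for the members of the androgen-induced list (left) and the androgen-repressed list (right) that were called, with 1 symbol per library and a bar at the group mean. KLK3 lies at 103 to 115 CPM with control siRNA and 187 to 235 CPM with E2F1 siRNA, and PEG3 at 615 to 725 and 175 to 217.

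Of 20 genes for nuclear receptor coregulators and steroid handling none rose and 2 fell (1 and 3 with the block), with a median of -0.12. These were HOXB13, a prostate homeobox gene, from 443, 438 and 587 to 342, 296 and 399 CPM (log2 -0.50 ± 0.12, adjusted p = 0.0201; up to 0.0984 without E2F1 siRNA replicate 1 or 2), and the corepressor gene NCOR1, from 371, 380.5 and 422 to 290.1, 316 and 318 (log2 -0.35 ± 0.07, adjusted p = 0.00638). Of 16 luminal epithelial genes 4 rose and 2 fell, HOXB13 and TMPRSS2. Beside KLK3 and KLK2 those that rose were ACPP, prostatic acid phosphatase, from 213, 221 and 195 to 301, 308 and 275 CPM (log2 0.49 ± 0.07, adjusted p = 6.95e-04), and CDH1, E-cadherin, with log2 0.30 ± 0.07 (adjusted p = 0.0160; up to 0.0725 without control replicate 1 or 2 or E2F1 siRNA replicate 3). Of 9 neuroendocrine genes 1 fell (3 with the block), the receptor tyrosine kinase gene RET, from 53 to 20 counts (log2 -1.23 ± 0.29, adjusted p = 0.0214; up to 0.0839 without control replicate 1 or E2F1 siRNA replicate 1 or 2, and not called by DESeq2). Among markers of other cell types VWF, an endothelial gene, fell from 13.6, 13.3 and 17.4 to 6.22, 6.81 and 7.77 CPM (log2 -1.09 ± 0.16, adjusted p = 5.40e-04), while PECAM1, the other endothelial marker, had 4 counts with control siRNA and 0 with E2F1 siRNA. COL1A1, a fibroblast collagen, fell from 16.4, 20.5 and 33.4 to 12.7, 11.1 and 14.5 CPM (log2 -0.88 ± 0.21, adjusted p = 0.0245; up to 0.110 without E2F1 siRNA replicate 1 or 2 or control replicate 3), with control replicate 3 the highest library, while DCN was at 0. The 4 fibroblast markers, which include VIM, summed to 28.9 to 48.9 CPM with control siRNA and 31.4 to 39.4 with E2F1 siRNA, and the 2 endothelial markers to 13.3 to 17.5 and 6.22 to 7.76. The part of other cells in these results was not tested.

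Contractile genes split. Of 17 tested 5 rose and 1 fell (9 and 1 with the replicate block). Of the 17 values 15 were above 0, and the median log2 value was 0.23. ACTA2, smooth muscle actin, went from 4.07, 2.49 and 3.94 to 9.01, 10.2 and 8.93 CPM (log2 1.42 ± 0.18, adjusted p = 1.66e-04), MYL9 from 2.00, 1.94 and 3.27 to 8.72, 6.90 and 8.54 (log2 1.74 ± 0.23, adjusted p = 2.79e-04) and VIM, vimentin, from 7.90, 8.86 and 9.81 to 15.1, 13.3 and 18.5 (log2 0.82 ± 0.17, adjusted p = 0.00844). ACTG2, enteric smooth muscle actin, had 0 counts in the control libraries and 43 in the E2F1 siRNA libraries, at least 16.0-fold higher when the control group is set to its floor of 3 counts (adjusted p = 5.47e-04). Actin paralogs share sequence, and ACTA2 overlaps FAS on the opposite strand, whose log2 value was 0.51. MYH10, a non-muscle myosin, was the fifth to rise (log2 0.24 ± 0.06; named after its value was seen), and MYLK, the kinase that phosphorylates the myosin light chain, was the 1 that fell.

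Of 34 genes of TGF-beta signalling and extracellular matrix 4 fell and none rose, and with the replicate block 6 fell and 3 rose; the median was -0.10. FN1, fibronectin, went from 1090.0, 1153 and 1345 to 698, 701 and 726 CPM (log2 -0.76 ± 0.11, adjusted p = 5.00e-04), and LAMB1, a laminin chain, from 13.1, 12.5 and 14.3 to 8.64, 7.60 and 8.85 (log2 -0.67 ± 0.14, adjusted p = 0.00787). The collagen genes COL1A1 and COL5A2 (log2 -0.39 ± 0.11) were the other falls, and COL5A2 was not called with any library left out (adjusted p up to 0.135). Of 20 adhesion and EMT genes 2 rose (4 with the block), CDH1 and VIM, which mark the epithelial and the mesenchymal state.

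IGF1R and JAG1, a receptor and a ligand of growth pathways, had some of the smallest p-values among the falls. IGF1R, the receptor for IGF1 and IGF2, went from 49.96, 47.7 and 53.5 to 24.4, 26.2 and 26.4 CPM (log2 -0.97 ± 0.07, adjusted p = 5.85e-07). The ligand gene IGF2 fell from 80 to 29 counts (log2 -1.28 ± 0.30, adjusted p = 0.0199) and IGF2R, which clears IGF2, from 799.7, 795 and 888 to 679, 704 and 723 CPM (log2 -0.24 ± 0.06, adjusted p = 0.0350), so that 3 of 9 genes of the IGF axis fell and none rose (3 and 1 with the block). IGF2 and IGF2R were both lost without E2F1 siRNA replicate 1 or 2 or control replicate 3, and IGF2R also without control replicate 1 (adjusted p up to 0.0958 and 0.148). JAG1, a Notch ligand, went from 97.5, 99.5 and 113 to 38.7, 40.7 and 45.5 CPM (log2 -1.31 ± 0.10, adjusted p = 9.22e-07). With it 3 of 28 WNT and Notch genes fell and 1 rose (5 and 1 with the block). The negative WNT feedback gene AXIN2 had log2 -0.52 ± 0.11 (adjusted p = 0.0561 without E2F1 siRNA replicate 1), the transcription factor gene TCF7, with 54 counts and 13, -1.86 ± 0.48 (adjusted p up to 0.136 without control replicate 1 or 3 or E2F1 siRNA replicate 2 or 3) and the WNT receptor gene FZD5 0.51 ± 0.10.

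Feedback genes of the ERK pathway included a rise in SPRY4, a sprouty inhibitor, from 2.53, 3.25 and 5.00 to 12.5, 9.64 and 9.54 CPM (log2 1.55 ± 0.25, adjusted p = 0.00117), and in DUSP10, a MAP kinase phosphatase, from 16.3, 15.2 and 18.2 to 24.1, 27.0 and 27.7 (log2 0.67 ± 0.14, adjusted p = 0.00890). With CCND1 lower, 2 of 19 were higher and 1 lower (4 and 1 with the block). Of 24 PI3K, AKT and FOXO genes 2 rose and 1 fell (4 and 5 with the block). The lipid phosphatase gene INPP4B went from 6.91, 7.26 and 3.00 to 13.9, 16.3 and 9.31 CPM (log2 1.20 ± 0.27, adjusted p = 0.0143; up to 0.0719 without E2F1 siRNA replicate 1 or 2). The mTOR inhibitor gene DEPTOR had log2 0.58 ± 0.13 (adjusted p = 0.0510 without E2F1 siRNA replicate 1) and FOXO3 -0.28 ± 0.07 (adjusted p up to 0.162 without control replicate 1 or 2 or E2F1 siRNA replicate 1 or 3). Of 22 immediate early and serum response genes 1 fell (2, with 1 higher, in the block fit), the antiproliferative BTG1, from 145, 145 and 117 to 75.1, 74.8 and 59.5 CPM (log2 -0.96 ± 0.11, adjusted p = 9.20e-05).

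Lipid genes rose in part. Of 36 genes of sterol and fatty acid synthesis 4 rose and none fell, 33 had a value above 0, and the median log2 value was 0.23. With the replicate block 15 rose and 1 fell, beside 5.66% and 7.08% of all genes tested. SCD, the stearoyl-CoA desaturase, went from 839, 806 and 755 to 1129, 1085 and 1054 CPM (log2 0.45 ± 0.06, adjusted p = 4.40e-04), SQLE, squalene epoxidase, from 41.0, 41.2 and 36.0 to 58.4, 58.2 and 53.2 (log2 0.52 ± 0.08, adjusted p = 0.00135) and ACACA, acetyl-CoA carboxylase, from 475, 460.1 and 446 to 540.4, 575 and 570.0 (log2 0.29 ± 0.06, adjusted p = 0.00890). The elongase gene ELOVL2 rested on 5 and 22 counts (log2 2.20 ± 0.61, adjusted p = 0.0471, up to 0.150 without any library except control replicate 1). NPC1, which exports cholesterol from lysosomes, had one of the smallest p-values, going from 164, 163 and 148 to 322, 335 and 297 CPM (log2 1.00 ± 0.07, adjusted p = 3.22e-07). It was 1 of 2 higher genes among 29 for lysosome and autophagy, with GABARAPL1 (log2 0.52 ± 0.08); MAP1LC3B was lower (log2 -0.61 ± 0.16; groups overlapped, adjusted p up to 0.153 without control replicate 1 or 2 or E2F1 siRNA replicate 2 or 3). With the block 3 of that list rose and 4 fell.

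Amino acid and energy genes moved both ways. Of 31 ATF4 targets and amino acid supply genes 3 rose and 2 fell (4 and 4 with the block). The serine synthesis genes PSAT1 and PSPH went from 159, 164 and 121 to 229, 226 and 190.0 CPM (log2 0.54 ± 0.13) and from 34.0, 35.2 and 35.8 to 46.6, 41.8 and 44.0 (log2 0.34 ± 0.08), and CTH, of cysteine synthesis, had log2 0.67 ± 0.14. The amino acid transporter genes SLC7A5, from 7.52, 6.23 and 11.7 to 3.15, 3.54 and 4.39 CPM (log2 -1.20 ± 0.27), and SLC1A4 (log2 -0.58 ± 0.15) fell. CTH kept its call with every library left out in turn. PSAT1 lost it without control replicate 3 or E2F1 siRNA replicate 1 or 2 (adjusted p up to 0.109) and PSPH without control replicate 1 or 2 or E2F1 siRNA replicate 1 or 3 (up to 0.117). SLC7A5 lost it without E2F1 siRNA replicate 1 or 2 (up to 0.0878) and SLC1A4 without control replicate 1, 2 or 3 or E2F1 siRNA replicate 1 or 2 (up to 0.139). Of 37 glycolysis and hypoxia genes 2 rose and 1 fell (3 and 4 with the block): the hexokinase HK2, from 33.0, 35.6 and 32.7 to 54.9, 48.6 and 53.9 CPM (log2 0.64 ± 0.10, adjusted p = 0.00117), the lactate transporter SLC16A1 (log2 0.58 ± 0.10) and the hypoxia factor EPAS1 (log2 -0.90 ± 0.21, adjusted p up to 0.0882 without E2F1 siRNA replicate 1 or 2). Of 76 nuclear genes of oxidative phosphorylation 2 fell (4 with the block), which is 2.63% beside 2.92% of all genes tested. They were ATP5I, an ATP synthase subunit, from 74.2, 77.0 and 95.7 to 49.95, 40.8 and 54.5 CPM (log2 -0.77 ± 0.12, adjusted p = 8.51e-04) and COX7A2 of cytochrome oxidase, from 119, 121 and 104 to 82.8, 73.6 and 68.7 (log2 -0.61 ± 0.10, adjusted p = 0.00105). None of 11 mitochondrially encoded genes was called by edgeR (1 at an unadjusted p under 0.05; DESeq2 called none and limma-voom none); MT-ND2 had a log2 value of 0.22 ± 0.10 (adjusted p = 0.303) and MT-ND4 0.15 ± 0.12 (adjusted p = 0.641).

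Of 26 genes of endoplasmic reticulum stress and folding 1 rose, the membrane-bound factor CREB3L2 (log2 0.38 ± 0.07), and 1 fell, EDEM1, of protein degradation, from 111, 112 and 78.6 to 50.5, 50.9 and 41.9 CPM (log2 -1.07 ± 0.14, adjusted p = 2.81e-04); with the block 6 rose and 1 fell. Of 28 MYC and ribosome biogenesis genes 1 rose, the nucleolar GNL3 (log2 0.36 ± 0.08, adjusted p = 0.0527 without E2F1 siRNA replicate 1, and 0.105 with the GC correction), and 4 with the block. None of 86 cytosolic ribosomal protein genes was called by edgeR (3 at an unadjusted p under 0.05; DESeq2 called 1 higher and 0 lower and limma-voom none; 2 higher and 1 lower with the block), with RPS27L at log2 0.38 ± 0.11 (adjusted p = 0.0630; 0.00509 with the block) and RPSA at -0.21 ± 0.07 (adjusted p = 0.115; 0.0247). Of 26 oxidative stress genes 1 fell, the quinone reductase NQO1, from 99.8, 105 and 102 to 78.9, 75.2 and 76.7 CPM (log2 -0.41 ± 0.07, adjusted p = 0.00230), and 2 rose and 2 fell with the block. Of 13 RNA interference genes 1 fell, the Argonaute partner TNRC6B (log2 -0.43 ± 0.09, adjusted p = 0.0107; 0.0658 without E2F1 siRNA replicate 1). Single calls made up 3.85% of the stress and folding list each way and 3.57% of the MYC list. They made up 3.85% of the oxidative stress list and 7.69% of the RNA interference list. Counts over all 38 lists were set against the background of 2.36% and 2.92%, and 112 of the 802 called genes were in any list.

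The number called in a list rose by more than 1.5 times in 25 of the 38 lists with the replicate block and in 28 with the GC correction. It did so in 33 with both and in 33 with replicates 1 and 2 only. In these fits it fell in no list (a list with no call that gained one counts as a rise). The background rose as well: of all genes tested 5.66% were higher and 7.08% lower with the block, 7.14% and 8.39% with the GC correction, 10.8% and 11.7% with both, and 9.46% and 9.48% with replicates 1 and 2 only. With the GC correction and with replicates 1 and 2 only, in that order, the number higher was 17 and 22 of 36 for sterol and fatty acid synthesis, 5 and 10 of 30 for p53 targets, 7 and 9 of 28 for MYC and ribosome biogenesis, 11 and 18 of 43 for the androgen-induced genes and 23 and 24 of 44 for the interferon effectors. The number lower was 7 and 18 of 50 for replication histones. In the G1/S list it was 4 and 6 of 46. The fit to the 6 libraries alone went the other way, with 7 genes higher and 6 lower among all tested. It called 3 of 44 interferon effectors, all higher. In that fit no member of the G1/S, G2/M, androgen-induced or sterol and fatty acid lists was called.

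**Figure D4:**
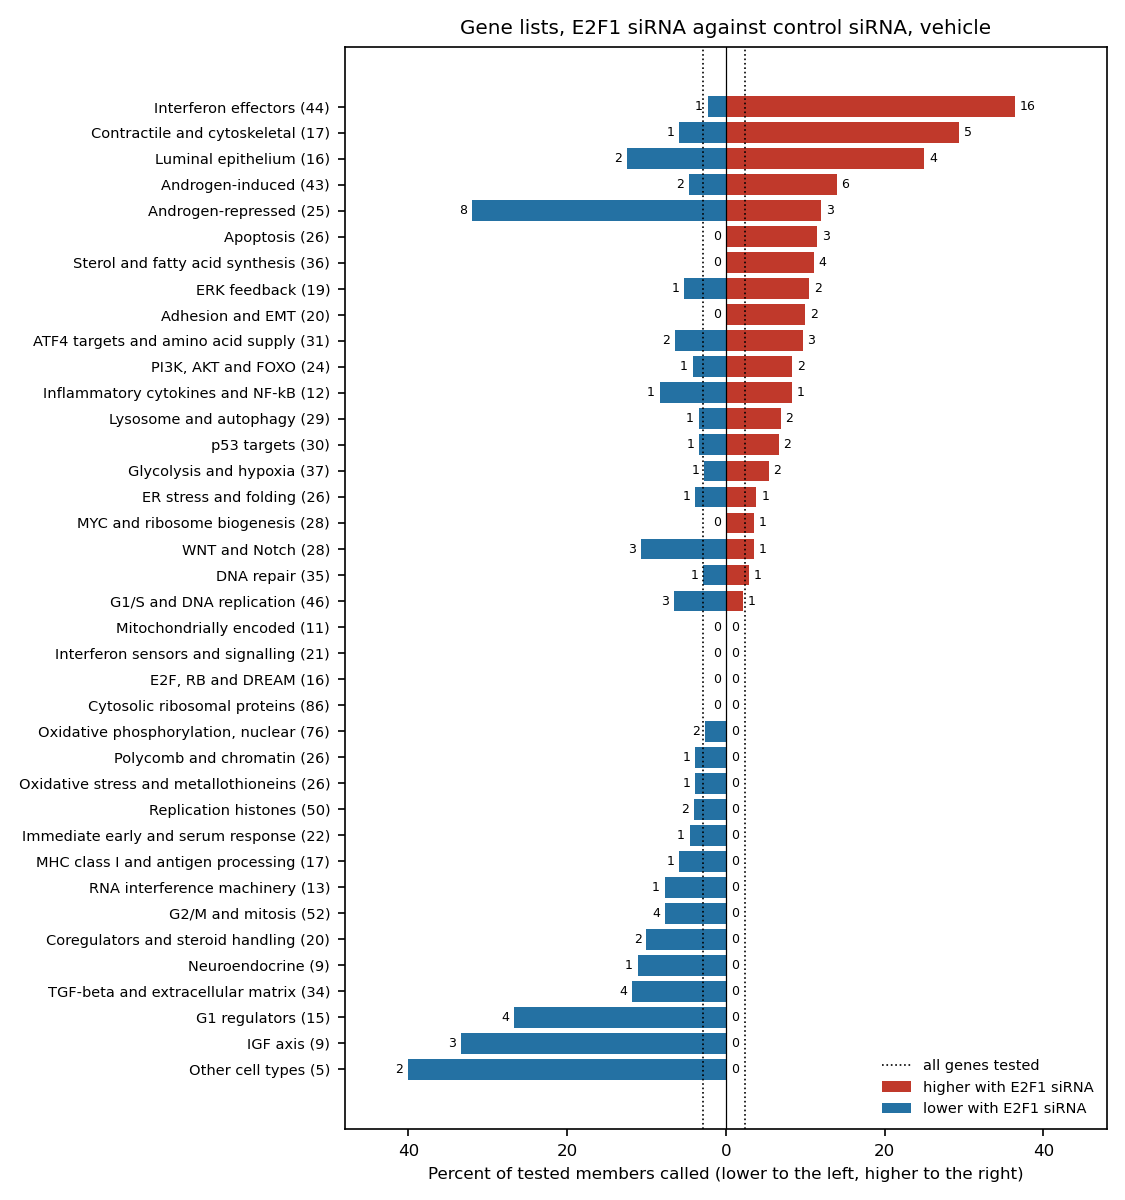
Percent of the tested members of each of 38 gene lists that were called higher (red, right) or lower (blue, left) with E2F1 siRNA and vehicle, with the number called beside each bar, the number tested in brackets and dotted lines at the shares of all genes tested (2.36% and 2.92%). Interferon effectors have 16 of 44 to the right, and 4 lists have no call on either side.

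The effect of E2F1 siRNA was next compared with its effect when R1881 was present, in 6 other libraries. With R1881, 671 genes were higher (4.42%) and 747 lower (4.92%) with E2F1 siRNA. Of the 802 genes called with vehicle, 370 were called the same way with R1881 (46.1% of the vehicle calls and 26.1% of the R1881 calls), 7 were called the opposite way and 712 had the same sign. The difference between the effects was itself tested, and 104 genes passed, 57 with a higher value with R1881 (0.375%) and 47 with a lower one (0.310%). Of the 802 vehicle calls 41 differed. The block raised the 104 to 696, and 1 library left out gave 29 (without control siRNA with R1881 replicate 2) to 257 (without control siRNA with vehicle replicate 3).

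The G1/S list had the most called differences. Of 46 G1/S genes 36 were lower with R1881 and 3 with vehicle, and the difference was called for 9, all with a lower value with R1881. Their median log2 value was -0.69 with R1881 and -0.02 with vehicle. CDC6 rose with vehicle and had a log2 value of -0.48 with R1881 (difference -0.84 ± 0.13, adjusted p = 0.00647). Of 52 G2/M genes 35 were lower with R1881 and 4 with vehicle, with called differences in 3, TPX2 (-0.58), BIRC5 (-0.60) and BUB1B (-0.82). Of 50 replication histones 31 were lower with R1881 and 2 with vehicle, with called differences in HIST1H4B (-0.73) and HIST1H2AM (vehicle -0.19, R1881 -1.48, difference -1.29 ± 0.24, adjusted p = 0.0206). UNG rose with vehicle (log2 0.36), had log2 -0.31 with R1881 and differed by -0.66 ± 0.12. Of 44 interferon effectors 21 were higher with R1881 and 16 with vehicle, and the difference was called for 1, the tetherin gene BST2 (log2 0.66 with vehicle, 2.68 with R1881, difference 2.03 ± 0.44, adjusted p = 0.0484). TPX2, BIRC5, BUB1B, HIST1H4B and BST2 are named after their values were seen. A count called under one treatment and not under the other is not a test of the difference, and the called differences are the test.

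Some of the falls and rises under vehicle were smaller, or not called, under R1881. MYLK, at 62.9, 58.9 and 77.4 CPM with control siRNA and 19.3, 19.4 and 24.0 with E2F1 siRNA under vehicle, stood at 7.75, 6.00 and 10.3 and 10.7, 10.6 and 9.19 CPM under R1881 (difference 2.02 ± 0.23, adjusted p = 8.45e-04). IGF1R stood at 226, 212 and 236 and 233, 229 and 230.4 CPM under R1881 (difference 1.01 ± 0.10, adjusted p = 2.48e-04), and its log2 value there was 0.04 (adjusted p = 0.837). NPC1 stood at 209, 205 and 215 and 239, 247 and 245 CPM under R1881 (difference -0.79 ± 0.09, adjusted p = 8.45e-04), and JAG1 had log2 values of -1.31 with vehicle and -0.38 with R1881 (difference 0.93 ± 0.14). VSIG10L, from 13.5, 13.8 and 17.3 to 5.42, 4.69 and 6.69 CPM with vehicle, had log2 -1.41 and 0.45 (difference 1.86 ± 0.25, adjusted p = 0.00264). DUSP27, from 100 to 28 counts with vehicle, had log2 -1.66 and 0.40 (difference 2.06 ± 0.36, adjusted p = 0.0138; 0.0587 without E2F1 siRNA vehicle replicate 1). TM4SF1 rose with vehicle (log2 1.41) and had -0.25 with R1881 (difference -1.66 ± 0.31; adjusted p = 0.0206, up to 0.0732 with 1 library left out). SLC16A10, a transporter of aromatic amino acids, had log2 0.46 with vehicle (adjusted p = 0.0772, and 0.0159 with the block) and -0.79 with R1881 (adjusted p = 0.00183; difference -1.25 ± 0.20, adjusted p = 0.00781). NCAPD3, a condensin II subunit, was called with R1881 and not with vehicle. It stood at 113, 121 and 121 CPM with control siRNA and 107, 113 and 113 with E2F1 siRNA under vehicle (log2 -0.09 ± 0.14, adjusted p = 0.860), and at 279.9, 260.1 and 352 and 1163, 1069 and 1115 under R1881 (difference 2.00 ± 0.20, adjusted p = 2.48e-04).

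**Figure D5:**
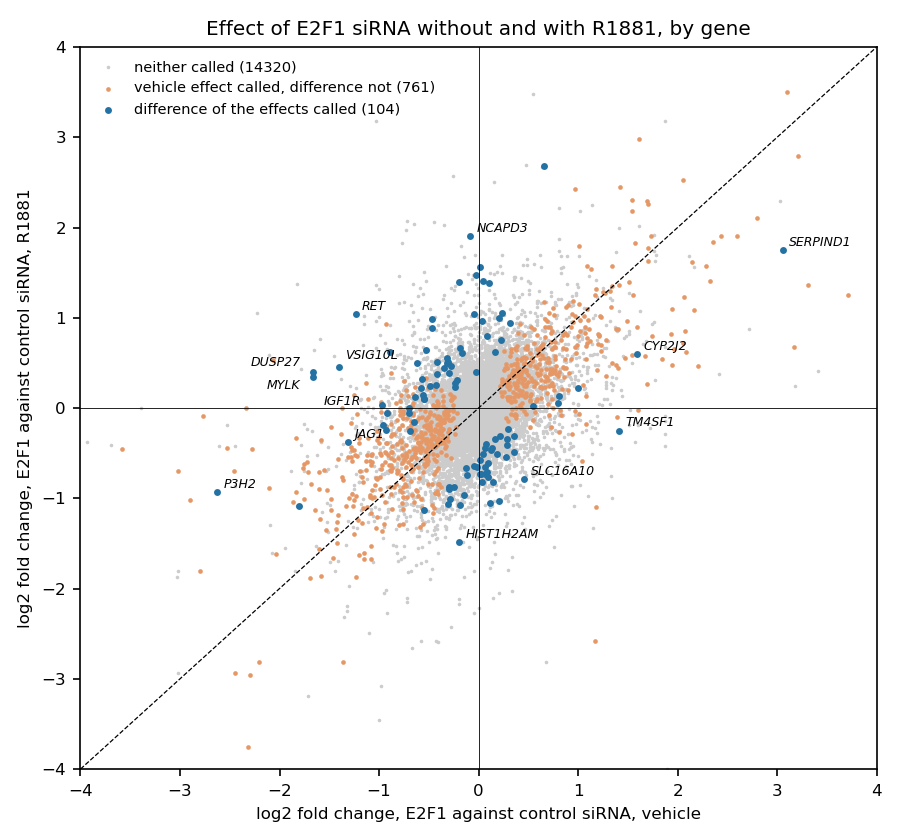
Fitted log2 fold change of E2F1 against control siRNA with vehicle (horizontal) and with R1881 (vertical), 1 point per gene tested. Blue points are the 104 genes whose difference was called, orange points the other 761 genes called with vehicle, grey points the 14320 others, and 7 genes lie outside the axes. NCAPD3 lies at -0.09 and 1.91, MYLK at -1.67 and 0.35 and SERPIND1 at 3.06 and 1.75.

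The E2F1 and E2F2 pools were also set against each other without androgen. The direct comparison called 4641 genes, 2191 higher with the E2F1 pool (14.4%) and 2450 lower (16.1%), and 591 of the 802 genes above (73.7%) were among them. The values of each pool against control share the control libraries and are given side by side only. SERPIND1 had log2 3.06 with the E2F1 pool and -2.24 with the E2F2 pool, and differed by 5.30 ± 0.22 between the pools (adjusted p = 4.29e-10). AOC1 had -2.90 and 2.81 (direct difference -5.71 ± 0.38, adjusted p = 2.54e-08). IL1B stood at 13.0, 16.4 and 13.8 CPM with the E2F2 pool, beside 2.15, 1.45 and 2.40 with control siRNA and 0.146, 0.265 and 0.308 with the E2F1 pool (direct difference -5.87 ± 0.34, adjusted p = 7.77e-09). Thus the E2F1 siRNA libraries lay on one side of control and the E2F2 siRNA libraries on the other in all of these genes.

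GSTA1, at 2.50, 3.40 and 3.44 CPM with the E2F2 pool, differed by 2.83 ± 0.16 between the pools. The glutamate receptor gene GRIN3A, which rose with the E2F1 pool from 18.0, 19.5 and 17.8 to 29.3, 30.9 and 29.8 CPM, differed by 2.81 ± 0.11, and TTR, transthyretin, which rose from 2.00, 1.66 and 1.94 to 4.32, 3.27 and 4.31, differed by 2.77 ± 0.25. On the lower side DLGAP3, a postsynaptic scaffold gene at 3.79, 3.77 and 5.00 CPM with the E2F2 pool and 5 counts in all with the E2F1 pool, differed by -4.90 ± 0.53, and EDNRA, the endothelin receptor gene at 4.99, 5.00 and 4.13 CPM with the E2F2 pool and 3 counts with the E2F1 pool, by a fitted -5.73 ± 0.53. KLK3 had log2 0.91 with the E2F1 pool and -1.004 with the E2F2 pool, and differed by 1.91 ± 0.12 (adjusted p = 2.06e-08). Of 46 G1/S genes 40 were higher with the E2F1 pool than with the E2F2 pool and none lower, and of 52 G2/M genes 43 were higher and none lower, beside the background of 14.4% and 16.1%. Their median log2 values against control were -0.02 and -0.25 with the E2F1 pool and -1.17 and -1.58 with the E2F2 pool. Of 86 ribosomal protein genes 77 were higher with the E2F1 pool than with the E2F2 pool and 1 lower. Of 44 interferon effectors 4 were higher and 11 lower with the E2F1 pool than with the E2F2 pool. Their median log2 value against control was 0.45 with the E2F1 pool and 0.66 with the E2F2 pool, so the list stood higher with both pools. E2F1 mRNA itself was lower with its own pool than with the E2F2 pool, at 5.79, 5.92 and 8.77 CPM beside 11.8, 10.8 and 15.1 (direct difference -0.88 ± 0.17, adjusted p = 0.00115). The E2F2 pool lowered it too, from 35.2, 33.6 and 43.0 CPM with control siRNA (log2 -1.57, adjusted p = 3.72e-06).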

How the data were processed

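RNA was captured for exons (TruSeq RNA Exome) from 3 biological replicates of each of 6 groups, per the labels. The authors deposited raw gene counts, and the tools named are CASAVA 1.8.2 and TopHat2 2.0.13 with the GRCh38 genome, Picard 1.97, and Subread 1.6.4, whose featureCounts counts reads per gene, per the submitters' processing notes. The strand setting, the annotation release and the treatment of reads mapping to several genes are not given in the sources used here. GENCODE 29 holds 57433 of the 58037 identifiers and gave coordinates and GC content. Library totals were 10930204 to 14819879 counts.

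The counts were fitted with edgeR 4.0.16 in R 4.3.3 (quasi-likelihood test, TMM scaling, filterByExpr with a minimum count of 10 and a minimum total of 15) to the 6 group means over 18 libraries, with Benjamini-Hochberg adjustment over 15185 genes and a threshold of 0.05. Values are TMM-scaled CPM, and ± is the SE of a log2 fold change with n = 3 per group. Same-numbered libraries deviated together from their group means (r = 0.73, 0.79 and 0.928 over 11070 genes), so the replicate number was also fitted as a block. Replicates 1 and 2 also deviated together across numbers (r = 0.745 and 0.822), and what a number shares is not given in the sources used here. Alternatives used DESeq2 1.42.0 and limma-voom (limma 3.58.1), other scaling, filters and covariates, and libraries left out. Intervals and floors cover counting error only, at 95% and 3 counts. In simulated counts for the E2F1 comparison with vehicle, over 15185 genes, 26.9% of genes changed 1.5-fold, 76.1% of those changed 2-fold and 95.5% of those changed 4-fold were called, with 3 false calls. These counts were drawn independently for each library, with 1 spread per gene for all groups. They held no shared replicate or GC deviation, and the changed genes had at least 2 CPM on average. The shares may therefore not hold for the real libraries.

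The members, gene lists, naming rule and tests were chosen with earlier results of these data known. Named are E2F1 and E2F2, the 12 largest rises and 12 largest falls among called genes with a mean of at least 2 CPM and no overlap, up to 5 called members of each list by smallest p (or up to 2 members where none was called), and the 4 largest differences each way in the other comparisons. Clone-style names were skipped, and some genes of these lists are not reported here.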

Additional observations from a re-analysis of the deposited data

Results flagged for a closer look

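The effect of E2F1 siRNA differed between R1881 and vehicle, by the edgeR test of the difference itself, for 21 of the named genes. Values are log2 differences, R1881 minus vehicle, from 12 libraries, with 6 for each effect and none shared.

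A call stood with each of the 12 libraries left out in turn for 10 of them. The value with R1881 was above that with vehicle for IGF1R (1.01), JAG1 (0.93), MYLK (2.02), NCAPD3 (2.00), P3H2 (1.70) and VSIG10L (1.86). It was below for CDC6 (-0.84), NPC1 (-0.79), SERPIND1 (-1.31) and SLC16A10 (-1.25).

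For the other 11 at least 1 library decided the call. The value with R1881 was above that with vehicle for BTG1 (0.77), DUSP27 (2.06), IGF2R (0.47), PEG3 (0.72), RET (2.28) and TMPRSS2 (0.68). It was below for CYP2J2 (-0.99), HIST1H2AM (-1.29), HMGB2 (-0.58), TM4SF1 (-1.66) and UNG (-0.66). The highest adjusted p with 1 library left out was 0.111 for BTG1, 0.105 for CYP2J2, 0.0587 for DUSP27, 0.0858 for HIST1H2AM, 0.158 for HMGB2, 0.0818 for IGF2R, 0.0657 for PEG3, 0.0870 for RET, 0.0732 for TM4SF1, 0.0862 for TMPRSS2 and 0.0712 for UNG.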

How the results depend on the processing

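The 802 calls with vehicle became 462 with no filter on low counts, 13 in a fit to these 6 libraries alone, 1934 with the replicate block, 2349 with the GC correction, 3405 with both and 2876 with replicates 1 and 2 only. They were 354 at an adjusted p under 0.01 and 220 at 2-fold or more, and 455 to 1042 with 1 library left out. The 104 called differences became 22 with no filter, 350 with DESeq2, 18 in a fit to the groups compared only, 696 with the block, 1170 with the GC correction, 2109 with both, 1840 with replicates 1 and 2 only, 25 at 0.01 and 25 at 2-fold, and 29 to 257 with 1 library left out. The 4641 genes that differed between the pools became 3897 in a fit to the groups compared only, 7193 with the GC correction, 8129 with both, 7658 with replicates 1 and 2 only, 2961 at 0.01 and 1457 at 2-fold. RLE scaling (793), DESeq2 (983), limma-voom (790) and a filter on CPM (801) kept the first count within 1.5 times.

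E2F2 with E2F1 siRNA ran from -0.55 (without E2F1 siRNA replicate 3) to 0.035 (without control replicate 3), the one reversal among the results recomputed. Of 118 named genes called with vehicle, 75 kept the call whichever of the 6 libraries was left out and 43 lost it for at least 1. With the block 7 named genes gained a call with vehicle, E2F7, IRF1, LIN52, RPS27L, RPSA, SLC16A10 and TMEM173, and it changed no other call among them. Fits to the groups compared only took 107 results for named genes below the threshold and no filter took 30. Replicates 1 and 2 only did so for CDKN1C, ELOVL2, IGF2 and TCF7, the GC correction for CASP4 and GNL3, DESeq2 for RET and limma-voom for ELOVL2. Fewer libraries or genes enter some of the fits, and the groups differ in the spread between replicates. The cause of these shifts was not tested. In the simulated counts, which held no shared replicate or GC deviation, fold changes near 1.5 were often missed. Genes with under 50 counts per group have wide intervals. One pool per gene in 1 cell line means that effects of the pool and of the loss of E2F1 cannot be told apart.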

Other observations

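Most of the called genes, 690 of 802, were in none of the lists, and several with very small p-values were among these. They were chosen after their values were seen. PRSS23, a serine protease, went from 7.90, 7.54 and 7.61 to 22.8, 22.8 and 22.2 CPM (log2 1.56 ± 0.11) and GALNT10, which starts O-glycosylation, from 188, 194 and 198 to 407, 428 and 390.1 CPM (log2 1.08 ± 0.07). IL6R, the interleukin 6 receptor gene, had a log2 value of 0.81 ± 0.07, and ARG2, the mitochondrial arginase, 0.95 ± 0.09. RTN1, a reticulon of the endoplasmic reticulum, went from 37.3, 36.9 and 40.9 to 16.6, 16.5 and 18.2 CPM (log2 -1.16 ± 0.09), FRY from 23.2, 24.0 and 21.8 to 11.1, 10.2 and 10.4 (log2 -1.13 ± 0.10) and PLEKHB2 from 161, 162 and 131 to 65.8, 60.2 and 59.1 (log2 -1.30 ± 0.12). All of these had an edgeR adjusted p of 8.41e-06 or less. The glutamate receptor genes GRIK1 and GRIK2 had log2 values of -1.49 ± 0.21 (adjusted p = 3.95e-04) and -1.25 ± 0.19 (adjusted p = 8.25e-04), while GRIN3A had 0.70 ± 0.10 (adjusted p = 3.24e-04).

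Of the called genes 734 were protein coding, 24 antisense, 22 long intergenic non-coding and 10 processed transcripts. Protein-coding genes made up 88.6% of the higher and 93.9% of the lower genes, beside 82.3% of all tested. Median GC content was 47.1% for the higher genes, 49.1% for the lower genes and 48.2% for all tested with a value. The part of base composition in the calls was not tested beyond the fits with a GC correction.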
